A study of Mus musculus with 20 samples.

Results

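Ctla2b, Itm2a, Slc1a4 and Slc12a2 had several-fold more RNA in bone marrow side population (SP) cells than in bone marrow main population (MP) cells, and in both muscle populations their signals were also above those of bone marrow MP cells. The members were Ctla2a, Ctla2b, Itm2a, Slc1a4 and Slc12a2, chosen by their very large rises in the signals of bone marrow SP against bone marrow MP arrays, so this marrow difference is given as a description with no test. By symbol they matched 5 of 12422 probe sets on the array, 1 for each gene, and made up 5 of the 8251 genes with a probe set of their own. A further probe set is annotated to both Ctla2a and Ctla2b and is shown beside them. Of the 5, 4 passed the filter on dim signals, and the Ctla2a probe set did not.

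Cells were sorted from adult mice of the inbred strain C57BL/10SnJ, and their total RNA was hybridised to expression arrays. The 4 groups were bone marrow SP, bone marrow MP, muscle SP and muscle MP, with 5 samples each. SP cells keep little of a DNA-binding dye because membrane pumps export it, and MP cells keep the dye. The labels give no genetic change or treatment in any group, and they are silent on whether a separate mouse or sort stands behind each sample. The p-values therefore rest on the spread between samples alone, which may be technical.

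CTLA-2 proteins, encoded by Ctla2a and Ctla2b, resemble the propeptide that keeps cathepsin L-like cysteine proteases inactive, and CTLA-2 alpha inhibits such proteases. They were first found in activated T cells and mast cells. Itm2a encodes a membrane protein with a BRICHOS domain, known from cartilage, muscle and T cells. Slc1a4 encodes ASCT1, a sodium-dependent exchanger of small neutral amino acids such as alanine and serine. Slc12a2 encodes a cotransporter that carries sodium, potassium and chloride into cells and sets cell volume and chloride content. Blood stem cells are known to be enriched among the SP cells of bone marrow.

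All values are normalised signals of a probe set, on a linear scale unless log2 is stated, with a floor at 105 signal units (log2 6.71). Probe sets differ in brightness, so no gene's level is set against another gene's. Before normalisation the median signal of an array ranged from 318 to 612. Precision is limited by the number of arrays. For the GAPDH control, the log2 ratio of 3' over 5' signal, a sign of RNA degradation or of amplification from the 3' end, averaged 3.72 ± 0.60 on bone marrow SP and 2.67 ± 0.72 on bone marrow MP arrays (SD, n = 5 each). It averaged 3.83 ± 0.61 on muscle SP and 2.66 ± 0.62 on muscle MP arrays. The 3 highest ratios belonged to muscle SP 1 and to arrays 4 and 5 of bone marrow SP.

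Ctla2b, one of the pair of CTLA-2 genes, was highest in bone marrow SP cells. Its signals were 10375, 13930, 10140.0, 16477 and 14583 on the bone marrow SP arrays, against 584, 692, 965, 821 and 716 on the bone marrow MP arrays. The lowest SP array lay 10.5-fold above the highest MP array. In muscle the signals were 5153, 5990, 9450, 5368 and 5142 on SP arrays and 4260, 3809, 6371, 4271 and 3772 on MP arrays. The muscle groups overlapped, and both lay between the marrow groups without reaching either. The mean log2 signals were 13.65 ± 0.31, 9.54 ± 0.27, 12.56 ± 0.37 and 12.11 ± 0.31 for bone marrow SP, bone marrow MP, muscle SP and muscle MP (SD, n = 5 each), a marrow difference of 4.11 ± 0.21 (SE) or 17.3-fold.

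The probe set shared by Ctla2a and Ctla2b followed the same order of group means. It read 22514, 21842, 15169, 23886 and 23488 on bone marrow SP arrays, against 1490, 1400, 2410, 2495 and 1280 on bone marrow MP arrays, a log2 difference of 3.60 ± 0.29 (SE). On muscle SP arrays it read 7984, 14839, 25188, 20145 and 16538, and on muscle MP arrays 11087, 6120, 15458, 10480 and 8097. Bone marrow SP and muscle SP overlapped here, as did muscle SP and muscle MP, while bone marrow MP lay below all other arrays. Muscle SP 1 was the lowest SP array and lay below 4 of the 5 MP arrays. The probe set annotated to Ctla2a alone had no usable signal: it exceeded the floor on 1 array, bone marrow MP 1 (161), and was at or below it on the other 19. No level is therefore given for Ctla2a by itself, and the shared probe set cannot say which of the 2 genes it read.

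Both genes lie on mouse chromosome 13, with 1 annotated gene, Tpbpb, between them. Their start regions are printed because 1 probe set is annotated to both genes. Of 278 aligned bases, 255 (91.7%) were identical, 23 differed, and a further 8 lay opposite gaps. The windows run from 250 bases before to 50 after the annotated start, 5′ to 3′ on the minus strand of GRCm38.p6, from RefSeq. The Ctla2a window is chr13:60936576-60936875 and the Ctla2b window chr13:60897398-60897697. Capitals mark matches on either strand to 3 motifs. The letters searched for AP-1 were TGACTCA. Those for MEIS were TGACAG. Those for the GATA factors were AGATAA.
Ctla2a: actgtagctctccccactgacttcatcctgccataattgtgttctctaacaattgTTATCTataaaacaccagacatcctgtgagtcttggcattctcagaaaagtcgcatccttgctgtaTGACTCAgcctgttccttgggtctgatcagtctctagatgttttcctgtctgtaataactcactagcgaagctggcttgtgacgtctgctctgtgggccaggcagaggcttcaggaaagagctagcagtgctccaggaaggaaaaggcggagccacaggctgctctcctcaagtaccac
Ctla2b: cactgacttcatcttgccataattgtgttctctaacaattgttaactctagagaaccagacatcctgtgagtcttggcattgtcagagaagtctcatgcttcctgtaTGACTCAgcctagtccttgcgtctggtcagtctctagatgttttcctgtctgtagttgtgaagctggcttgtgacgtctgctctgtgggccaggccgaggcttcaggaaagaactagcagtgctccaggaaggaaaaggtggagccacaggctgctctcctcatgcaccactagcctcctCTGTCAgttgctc
The AP-1 letters stood in both windows, 129 bases before the start in Ctla2a and 143 before it in Ctla2b, and 5.2% of all 32851 start windows in the RefSeq table hold them. The GATA letters were in the Ctla2a window, 195 bases before the start on the reverse strand (11.2% of all windows). The MEIS letters were in the Ctla2b window, 38 bases after the start on the reverse strand (19.2% of all windows). A second annotated Ctla2a start, chr13:60936517-60936816, has a window that overlaps the first and holds the AP-1 and MEIS letters. TGTGGT (RUNX, 16.8% of all windows) and CACGTG (E-box, 7.15%) were not in these windows. No matches overlapped, and a match is only a description of the letters.

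Itm2a, the BRICHOS membrane protein gene, was highest in muscle MP cells and lowest in bone marrow MP cells, and its 4 groups did not overlap. It read 1390, 2677, 1943, 3884 and 3322 on bone marrow SP arrays, against 278, 301, 306, 368 and 410 on bone marrow MP arrays. The marrow difference was 2.91 ± 0.25 on the log2 scale (SE), or 7.53-fold. In muscle it read 6309, 8713, 6571, 4388 and 5644 on SP arrays, against 16246, 13123, 18624, 18845 and 11991 on MP arrays. All 5 muscle SP arrays lay below all 5 muscle MP arrays, and above all bone marrow arrays. Itm2a fell in muscle SP cells by 1.33 ± 0.25 on the log2 scale (SE), a 2.51-fold lower signal (limma, adjusted p = 0.000838). The mean log2 signals were 12.59 ± 0.36 on muscle SP and 13.92 ± 0.30 on muscle MP arrays (SD, n = 5 each). The 95% interval of the difference ran from -1.84 to -0.82. With the GAPDH ratio as a covariate the difference was -1.35 ± 0.31 (adjusted p = 0.00768), and without the 3 arrays of highest ratio it was -1.33 ± 0.23 (adjusted p = 0.000563).

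The Itm2a start region is shown for its match to the GATA letters, which lie 228 bases before the start on the reverse strand. The window is chrX:107403311-107403610 on the minus strand of GRCm38.p6, and the capitals mark the match.
Itm2a: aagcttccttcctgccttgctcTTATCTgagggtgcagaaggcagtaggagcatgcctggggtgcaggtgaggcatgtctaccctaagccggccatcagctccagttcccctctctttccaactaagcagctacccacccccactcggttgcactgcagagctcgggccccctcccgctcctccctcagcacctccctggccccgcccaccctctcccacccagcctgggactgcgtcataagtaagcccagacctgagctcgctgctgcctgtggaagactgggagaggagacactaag
The other 4 motifs were not in this window. None of the 5 was in the Slc1a4 window (chr11:20332664-20332963), which says only that these letters are absent there.

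Slc1a4, the exchanger of small neutral amino acids, was close to the floor in bone marrow MP cells and clearly above it elsewhere. It read 1653, 2526, 1682, 1712 and 2746 on bone marrow SP arrays, against 117, 111, 94.9, 79.9 and 113 on bone marrow MP arrays. Of the bone marrow MP arrays, 2 were at or below the floor, so the marrow difference of 4.19 ± 0.21 on the log2 scale (SE), or 18.3-fold, rests on where the floor was set. It was 2.98 with the floor at the 40th percentile and 3.35 with a pseudocount in its place. In muscle it read 947, 774, 596, 674 and 893 on SP arrays, against 792, 894, 1029, 1696 and 1035 on MP arrays. The muscle groups overlapped, with 3 SP arrays below all MP arrays. Muscle MP 4 reached into the range of the bone marrow SP arrays.

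Slc12a2, the sodium, potassium and chloride cotransporter gene, was low in bone marrow MP cells and far higher in the other 3 groups, where muscle SP overlapped both others and bone marrow SP lay below muscle MP. It read 10563, 12256, 8402, 9988 and 12545 on bone marrow SP arrays, against 752, 740, 786, 503 and 808 on bone marrow MP arrays. The lowest SP array lay 10.4-fold above the highest MP array, and the log2 difference was 3.91 ± 0.22 (SE), or 15.0-fold. In muscle it read 23296, 13685, 8784, 9401 and 11218 on SP arrays, against 14868, 15341, 13574, 13481 and 14346 on MP arrays. Muscle SP 1, the array with the highest GAPDH ratio (4.79), was above all muscle MP arrays, and 3 of the other 4 SP arrays lay below them. The muscle SP arrays were spread widely, with an SD of 0.56 on the log2 scale against 0.08 for muscle MP.

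**Figure D1:**
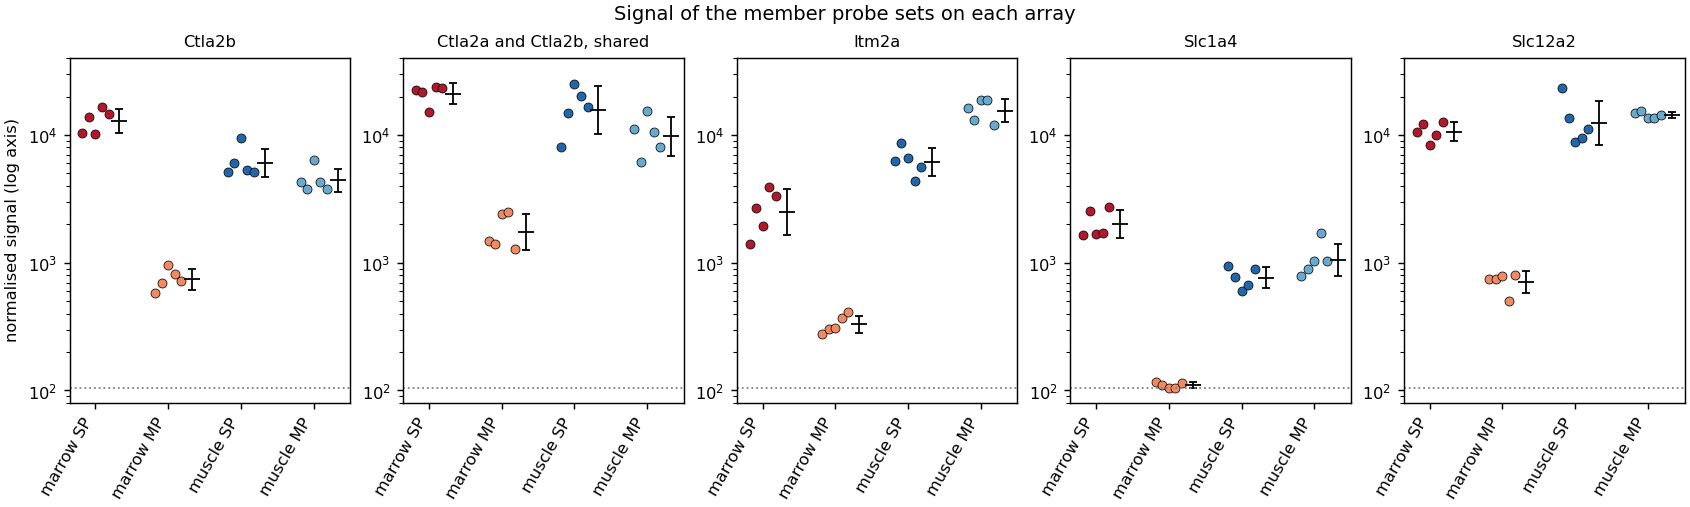
Normalised signal (log axis) of the 4 members that passed the filter and of the shared Ctla2 probe set on each of the 20 arrays, by sorted population; points are arrays, crosses with bars the mean of log2 values ± SD (n = 5), and the dotted line the floor at 105. Bone marrow MP is the lowest group in every panel, and Itm2a is highest in muscle MP.

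Set side by side, all 4 members that passed the filter had every bone marrow SP array above every bone marrow MP array, as did 9.98% of all 10310 probe sets tested, of which 30.2% passed the test in either direction. The members were chosen for this. All muscle SP arrays lay above all bone marrow MP arrays for the same 4 genes (15.9% of all probe sets tested). Ctla2b was the 1 member whose bone marrow SP arrays lay above all arrays of the other 3 groups (2.5% of all probe sets tested). These placements rest on the marrow values that chose the members, so nothing is read from them against the shares. The order of group means was bone marrow SP, muscle SP, muscle MP, bone marrow MP for Ctla2b and for the shared probe set. For Slc1a4 it was bone marrow SP, muscle MP, muscle SP, bone marrow MP. For Itm2a and Slc12a2 it was muscle MP, muscle SP, bone marrow SP, bone marrow MP. Neighbours that overlapped were the muscle groups for all but Itm2a, bone marrow SP and muscle MP for Slc1a4, and bone marrow SP and muscle SP for Slc12a2 and the shared probe set. Between tissues, bone marrow SP minus muscle SP was 1.09 for Ctla2b, -1.32 for Itm2a, 1.39 for Slc1a4 and -0.22 for Slc12a2 on the log2 scale. The same difference between MP cells, bone marrow minus muscle, was -2.57, -5.56, -3.25 and -4.34 in that order of genes, with median differences over all probe sets of 0.11 for SP and 0.14 for MP.

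The comparison of muscle SP with muscle MP took its differences from muscle arrays, after all arrays were normalised together. Its standard errors, intervals and p-values used the spread within all 4 groups, so they are not free of the marrow arrays. Results of all 4 groups were also known when the members were chosen. With only the muscle groups fitted, Itm2a differed by -1.33 ± 0.20 (SE, limma, adjusted p = 0.00445). The comparison asked whether the marrow difference has a counterpart in muscle. Of the 4 members, 1 fell (Itm2a) and 0 rose, while 6.64% of all probe sets tested fell and 5.1% rose, 11.7% in all. The muscle SP arrays lay wholly below the MP arrays for 1 member (5.69% of all probe sets) and wholly above them for 0 (4.43%). Ctla2b differed by 0.45 ± 0.21 on the log2 scale (SE, adjusted p = 0.180), with a 95% interval of 0.02 to 0.89. Slc1a4 differed by -0.46 ± 0.21 (adjusted p = 0.168, interval -0.88 to -0.03). Slc12a2 differed by -0.20 ± 0.22 (adjusted p = 0.642, interval -0.66 to 0.25), and by -0.43 without muscle SP 1. These 3 did not pass the threshold. Their intervals were computed for each probe set alone, without adjustment over all probe sets tested. An interval can therefore leave out 0 where the adjusted p did not pass, as for Ctla2b and Slc1a4.

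The shared Ctla2 probe set differed by 0.70 ± 0.29 in muscle (SE, adjusted p = 0.126) and did not pass in the fit of all arrays. It passed without muscle SP 1 (0.93, adjusted p = 0.0224), without the 3 arrays of highest GAPDH ratio (0.93, adjusted p = 0.0254) and with that ratio as a covariate (1.22, adjusted p = 0.0129). Over all alternatives its adjusted p ran from 0.0129 to 0.304. The marrow and muscle differences of each gene stand side by side in the plot of SP minus MP differences, without a test between the tissues, since the marrow values chose the genes.

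**Figure D2:**
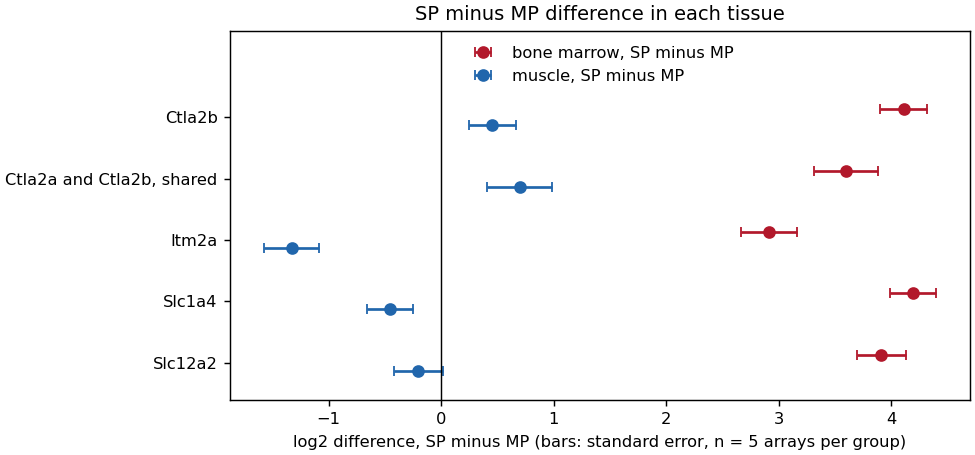
Log2 difference, SP minus MP, of each probe set in bone marrow (upper point of each pair) and in muscle (lower point), with standard errors (n = 5 arrays per group). Marrow differences lie between 2.91 and 4.19 and muscle differences between -1.33 and 0.70.

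In sorted cells of mixed type, fewer cells of a type and less RNA per cell cannot be told apart. The signals of marker genes moved between the same groups. In bone marrow SP cells 12 of 13 tested blood stem cell markers rose and 0 fell, while 15.4% of all probe sets rose and 14.8% fell. Abcg2, 1 of the 12, encodes a dye efflux pump, so its rise is tied to the sort itself. Of all calls in bone marrow, 50.9% were rises, against 72.2% with no further normalisation and 32.9% with median scaling. The summed signal of the 13 markers on the array ran from 31621 to 48183 on bone marrow SP arrays, against 7364 to 9109 on bone marrow MP arrays, and it was 49146 to 77581 on muscle SP and 42805 to 50524.5 on muscle MP arrays. Cd34 and Tek are also on the endothelial list. Abcg2 read 15898 to 32692 on muscle SP against 2160 to 6705 on bone marrow SP arrays. Procr, found on endothelium as well, read 6679 to 18731 on muscle SP against 3918 to 7160 on bone marrow SP arrays. Meis1 was at the floor on 4 muscle SP arrays and read 809 to 3350 on bone marrow SP arrays. Kit (288 to 994 against 2443 to 3109) and Flt3 (375 to 1063 against 2471 to 5046) were also lower on muscle SP. The muscle sums therefore do not measure blood stem cells alone. The T and NK cell list had 10 of 13 tested genes up and 0 down in bone marrow SP, and the 15 on the array summed to 13605 to 35269.7, against 3937 to 5716 on bone marrow MP arrays. Ncr1 was at the floor in both, and Cd8b1 in bone marrow MP. Of 15 endothelial markers, 9 rose and 1 fell in bone marrow SP, with sums of 11542 to 19134 against 5634 to 6875, and Tie1, Tek and Cldn5 were at the floor on all bone marrow MP arrays. Of the other lists, 13 of 13 B lineage, 5 of 8 mast cell and basophil, 6 of 13 granulocyte and 7 of 13 monocyte and macrophage markers fell in bone marrow SP, with 0 up in each. Of 8 erythroid markers 3 rose and 1 fell, and 0 of 3 megakaryocyte markers passed. Of 13 satellite cell and myogenic markers 2 fell, and of 12 fibroblast markers 2 rose. The part of these cells in the marrow differences of the members was not tested.

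Beside the lower Itm2a signal of muscle SP cells, 7 of 13 satellite cell and myogenic markers fell and 0 rose (6.64% and 5.1% of all probe sets), with sums of 6855 to 21928 on muscle SP against 21241 to 24923.5 on muscle MP arrays. Of 12 fibroblast markers, 7 fell and 1 rose, with sums of 92492 to 145828 against 210487 to 311891. The monocyte and macrophage list had 9 of 13 genes down and 0 up, with sums of 4747 to 10933 against 17748 to 19989. Of 15 endothelial markers, 5 rose and 0 fell (222193 to 254662 against 163471 to 190826), and 4 of 13 in the T and NK cell list were up with 0 down (2840 to 12303 against 1427 to 1999), where Cd3e and Cd3g did not exceed the floor in either group. Of the other lists, blood stem cell markers had 2 up (Mecom and the dye pump gene Abcg2) and 0 down. B lineage markers had 1 up and 4 down, mast cell 1 up and 0 down, and granulocyte, erythroid and megakaryocyte 0 either way. Among muscle SP arrays, Itm2a read lowest on numbers 4 and 5 (4388 and 5644). There the satellite cell and myogenic sums were 21890 and 21928, within the muscle MP range. On numbers 1 to 3 they were 12392, 12290 and 6855. The fibroblast sums (95634 and 92492) and the monocyte and macrophage sums (4894 and 4747) were lowest on numbers 4 and 5. So were the T and NK cell (2840 and 2987), granulocyte (2056 and 1450) and erythroid sums (3147 and 3628). The mast cell and basophil sums (4053 and 3622) were lowest there as well. The blood stem cell sums (76021 and 77581) were highest on these arrays, which thus stood apart in many lists. Numbers 4 and 5 were picked by their Itm2a values, so nothing about any cell type is read from the sums on them. The part of the listed cell types in the Itm2a difference was not tested.

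**Figure D3:**
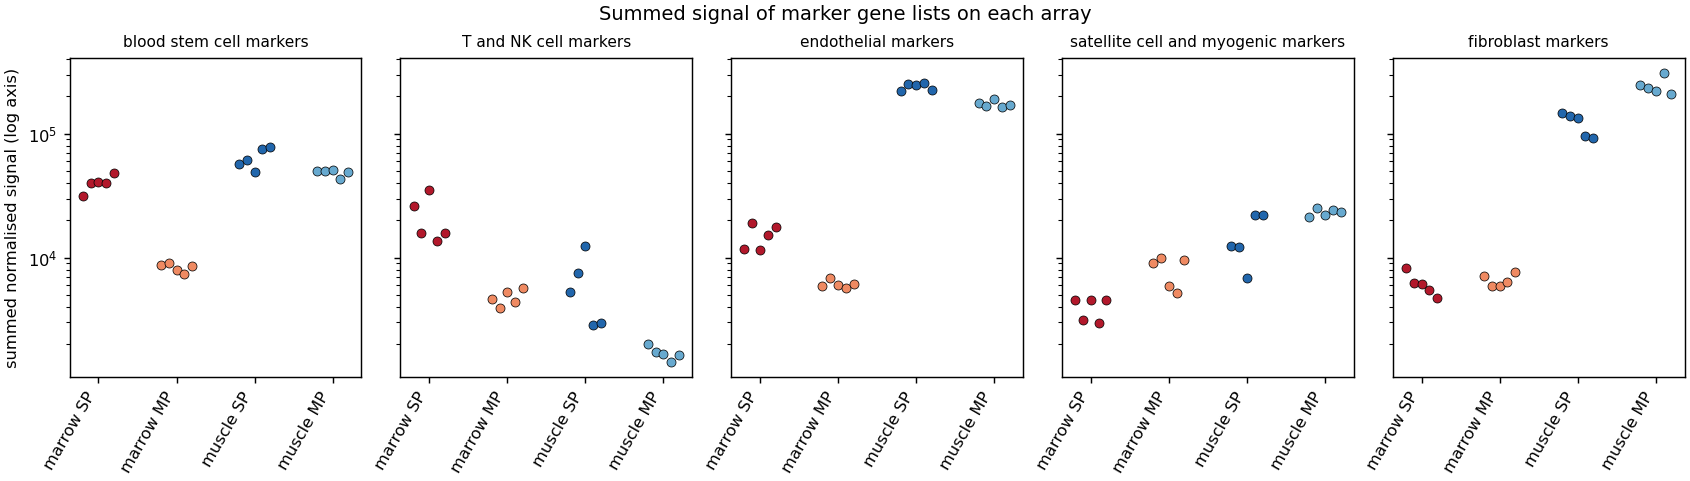
Summed normalised signal (log axis) of 5 marker lists on each array, by sorted population; each point is 1 array. Blood stem cell marker sums are 31621 or more on bone marrow SP and all muscle arrays and 9109 or less on bone marrow MP arrays. Cd34 and Tek are also on the endothelial list. Abcg2 (15898 to 32692) and Procr (6679 to 18731) also read high on muscle SP arrays. The muscle sums therefore do not measure blood stem cells alone.

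Among the 9095 tested probe sets with a single symbol, likeness of pattern was measured as the root mean square difference between log2 profiles over the 20 arrays, each centred on its own mean. The arrays fall into 4 groups, so this mostly compares 4 group means. Nearest to Ctla2b were Gata3 (0.53), a transcription factor of T cells, Slc1a4 (0.54) and Adgrg1 (0.57), an adhesion receptor, where the median over all probe sets was 1.63. Nearest to Itm2a were Fkbp9 (0.49), a protein-folding enzyme of the endoplasmic reticulum, Ndn (0.54), which encodes necdin, and Ppic (0.56), which encodes cyclophilin C. Nearest to Slc1a4 were Ctla2b (0.54), Mllt3 (0.66), a chromatin reader known from blood stem cells, and Slc12a2 (0.75). Nearest to Slc12a2 were Socs2 (0.51), a brake on cytokine signals, Procr (0.54), the protein C receptor found on endothelium and blood stem cells, and Pcp4l1 (0.63). Ctla2b and Slc1a4 were near each other, while Ctla2b ranked 840 of 9094 probe sets by likeness to Itm2a (1.58). Slc12a2 was nearer to Itm2a (0.90, ranked 38). Likeness between members is partly fixed by the choice, since the distance includes the marrow arrays. The other genes named here were picked for their likeness, so a pattern shared with the member is no further result.

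**Figure D4:**
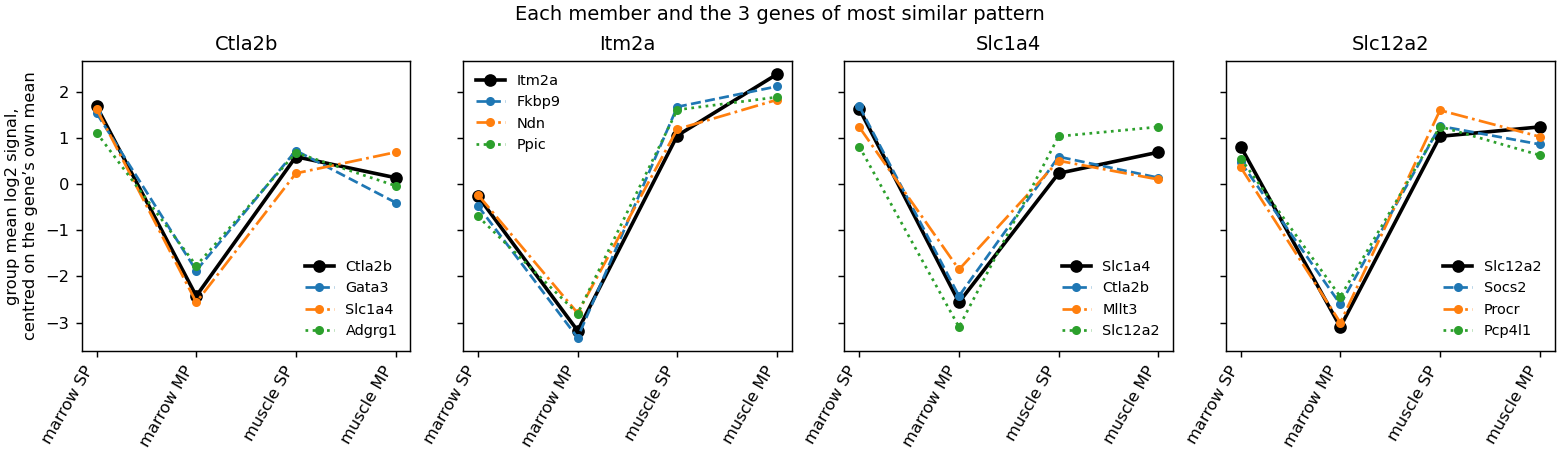
Group mean log2 signal, centred on each gene's own mean, for each member (black) and the 3 genes of most similar pattern; lines join the groups for the eye. All profiles dip at bone marrow MP, and those beside Itm2a stand highest in muscle MP. The neighbours were picked for likeness to the member, so these shared features follow from the choice.

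The possible targets of CTLA-2 proteins are the papain family cysteine proteases, of which 9 were tested. Over all probe sets tested, 15.4% rose and 14.8% fell in bone marrow SP, and 5.1% rose and 6.64% fell in muscle SP. Among the proteases in bone marrow SP cells 2 rose and 3 fell (median -0.43 on the log2 scale, against 0.02 for all probe sets), and in muscle SP cells 0 rose and 4 fell (median -0.53 against 0.03). Ctsw, the cathepsin of cytotoxic lymphocytes, was higher in bone marrow SP by 3.94 ± 0.36 (SE, adjusted p = 3.7e-08), 15.4-fold against the floor, which no bone marrow MP array exceeded. That value depends on the floor, and was 2.66 with it at the 40th percentile and 4.90 at the 10th. Ctsf rose there by 1.78 ± 0.22, and Ctsh, a lysosomal aminopeptidase, fell by 1.64 ± 0.31 (-2.28 with median scaling). In muscle SP cells Ctss, the cathepsin of antigen-presenting cells, fell by 2.87 ± 0.55 (adjusted p = 0.00127), 7.31-fold. The difference was -2.24 without muscle SP 4 and -3.55 with the GAPDH ratio as a covariate. Ctsc, which activates granule proteases, fell by 2.13 ± 0.33, and by 0.87 and 0.93 on its 2 dimmer probe sets, which also passed. Ctsk, a collagen-degrading cathepsin, fell by 2.04 ± 0.36. Ctsl, the namesake protease of the inhibitor's fold, is added after its values were seen: it differed by -0.07 ± 0.22 in bone marrow and -0.47 ± 0.22 in muscle (adjusted p = 0.872 and 0.196).

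Of 5 other inhibitors of cysteine proteases tested, 0 rose and 1 fell in bone marrow SP (15.4% and 14.8% of all probe sets). In muscle SP 1 rose and 0 fell (5.1% and 6.64% of all probe sets). Cst3, which encodes cystatin C, fell in bone marrow by 0.69 ± 0.19 (SE, adjusted p = 0.00644), a call lost with the GAPDH ratio as a covariate (-0.47, adjusted p = 0.104), while median scaling gave -1.34. Its other probe set gave -1.16 in bone marrow and 0.69 in muscle, both past the threshold, where the brighter one gave 0.17 in muscle. Cst7, which encodes cystatin F of immune cells, rose in muscle SP by 1.37 ± 0.33 (adjusted p = 0.00850). That call was lost with the GAPDH ratio as a covariate (adjusted p = 0.0587), with the floor at the 40th percentile (0.284) and with only the muscle groups fitted (0.0742).

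The relatives of Itm2a did not share its pattern in a single direction. Itm2c rose in bone marrow SP by 1.15 ± 0.26 (SE, adjusted p = 0.00151), and Itm2b fell by 0.93 ± 0.15 (adjusted p = 6.0e-05). In muscle they differed by 0.05 ± 0.26 and 0.09 ± 0.15, neither past the threshold. Sftpc, which encodes a surfactant protein with the same domain, passed in neither tissue. Of 3 BRICHOS genes, 1 rose and 1 fell in bone marrow, and 0 changed by the test in muscle. Over all probe sets tested, 15.4% rose and 14.8% fell in bone marrow SP, and 5.1% rose and 6.64% fell in muscle SP. With 3 genes, nothing is read from these counts.

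The Slc1 family of amino acid and glutamate transporters had 4 other tested members. Slc1a1, a glutamate transporter, was at the floor on every bone marrow array and fell in muscle SP by 1.39 ± 0.25 (SE, adjusted p = 0.000726), 2.61-fold, with a difference of -0.80 where the floor was at the 40th percentile. Slc1a2, also a glutamate transporter, was higher in bone marrow SP by 0.82 ± 0.31 (adjusted p = 0.0467), a call lost in 10 of the 20 fits that left out 1 array and with the floor at the 40th percentile (0.17). It differed by -0.70 ± 0.31 in muscle (adjusted p = 0.156), and by -0.95 (adjusted p = 0.0388) without muscle SP 3. Slc1a5, which encodes ASCT2, the closest relative of Slc1a4, differed by 0.14 ± 0.27 in bone marrow and 0.21 ± 0.27 in muscle, where neither passed. Slc1a6 differed by -0.01 ± 0.17 and -0.20 ± 0.17, near the floor throughout.

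Of 14 other amino acid transporters, 2 rose and 3 fell in bone marrow SP (15.4% and 14.8% of all probe sets), and 0 rose and 2 fell in muscle SP (5.1% and 6.64%), counts near those shares. Slc7a11, the cystine and glutamate exchanger, fell in bone marrow SP by 3.35 ± 0.24 (SE, adjusted p = 9.7e-10), with signals of 130 to 224 on SP arrays against 928 to 2814 on MP arrays. The difference was -2.77 with the floor at the 40th percentile and -2.75 with a pseudocount. Slc7a7, a partner of Slc3a2 in cationic amino acid exchange, fell by 1.13 ± 0.26. Slc38a2, a sodium-coupled carrier of small neutral amino acids, rose by 0.97 ± 0.29 (adjusted p = 0.0125). That call was lost with median scaling (0.41, adjusted p = 0.383), with only the marrow groups fitted (adjusted p = 0.0663) and without the 3 arrays of highest GAPDH ratio (0.49, adjusted p = 0.190). In muscle SP Slc38a4 fell by 1.15 ± 0.29 (adjusted p = 0.0117), a call lost with the floor at the 40th percentile (adjusted p = 0.156). Slc7a5, which encodes a carrier of large neutral amino acids, was lower by 0.72 ± 0.21 (adjusted p = 0.0247). It no longer passed without muscle SP 3, muscle SP 5, muscle MP 2 or muscle MP 4, with adjusted p up to 0.0758.

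Of 15 genes of serine synthesis and the Atf4 stress pathway, 5 rose and 0 fell in bone marrow SP, where 15.4% of all probe sets rose and 14.8% fell, and 1 rose and 3 fell in muscle SP, where 5.1% rose and 6.64% fell. Ppp1r15a, a phosphatase subunit that restarts translation after stress, rose in both, by 1.74 ± 0.21 in bone marrow (SE, adjusted p = 1.8e-06) and by 1.33 ± 0.21 in muscle (adjusted p = 1.99e-04). Trib3, a stress-induced pseudokinase, rose in bone marrow by 1.33 ± 0.22. Eif2ak4, the sensor kinase of amino acid shortage, was higher there by 1.16 ± 0.44 (adjusted p = 0.0494), a call lost in 15 of the 20 fits that left out 1 array and with the floor at the 40th percentile (0.51), while the GAPDH covariate gave 1.76. Psat1, an enzyme of serine synthesis, fell in muscle SP by 2.66 ± 0.27 (adjusted p = 6.4e-07), 6.32-fold. Mthfd2, a mitochondrial enzyme of folate metabolism, fell by 1.56 ± 0.28, while its dimmer probe set differed by -0.24 and did not pass.

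Of 10 genes of the Slc12 family and of the WNK kinases that regulate it, 1 rose and 3 fell in bone marrow SP (all probe sets, 15.4% and 14.8%), and 2 rose and 1 fell in muscle SP (all probe sets, 5.1% and 6.64%). Slc12a7, a cotransporter that moves potassium and chloride out of cells, rose in both, by 1.88 ± 0.18 in bone marrow (SE, adjusted p = 5.3e-08) and by 0.91 ± 0.18 in muscle (adjusted p = 0.00139). Slc12a3, a sodium and chloride cotransporter known from the kidney, fell in bone marrow by 1.65 ± 0.20 (-0.81 with the floor at the 40th percentile) and differed by 0.07 ± 0.20 in muscle. Slc12a5, an exporter of potassium and chloride known from neurons, rose in muscle by 1.01 ± 0.25 (adjusted p = 0.0106), a call lost with the floor at the 40th percentile (adjusted p = 0.315) or the GAPDH ratio as a covariate (0.180). It differed by -0.06 ± 0.25 in bone marrow. Slc12a4, another exporter, differed by 0.72 ± 0.39 in bone marrow (adjusted p = 0.176), and by 1.14 (adjusted p = 0.0104) without bone marrow SP 4 and 1.07 (adjusted p = 0.0343) with no further normalisation. It differed by 0.22 ± 0.39 in muscle. Slc12a1 differed by -0.14 ± 0.24 and 0.12 ± 0.24 in bone marrow and muscle. Cab39, a scaffold of the kinases downstream of WNK, fell in both, by 1.59 ± 0.26 and 0.96 ± 0.26, and without muscle SP 3 the muscle value no longer passed (adjusted p = 0.0543).

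Of 13 sodium pump and chloride channel genes, 3 rose and 3 fell in bone marrow SP, and 0 rose and 2 fell in muscle SP. These counts were near the shares of 15.4%, 14.8%, 5.1% and 6.64% over all probe sets. Kcnn4, a calcium-activated potassium channel, rose in bone marrow by 1.39 ± 0.30 (SE, adjusted p = 0.00109). Lrrc8a, a subunit of the volume-regulated anion channel, rose by 1.01 ± 0.26 (adjusted p = 0.00451), a call lost with the GAPDH ratio as a covariate (adjusted p = 0.0553). Atp1b1, a subunit of the sodium pump, fell by 1.38 ± 0.21. In muscle SP Clcn5, an endosomal chloride transporter, fell by 2.22 ± 0.22 (adjusted p = 4.5e-07), 4.67-fold, while its other probe set differed by -0.03. Clcn4 was lower by 0.62 ± 0.20 (adjusted p = 0.0473), a call lost in 14 of the 20 fits that left out 1 array. The other Clcn4 probe set differed by -0.32 and did not pass (adjusted p = 0.383).

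**Figure D5:**
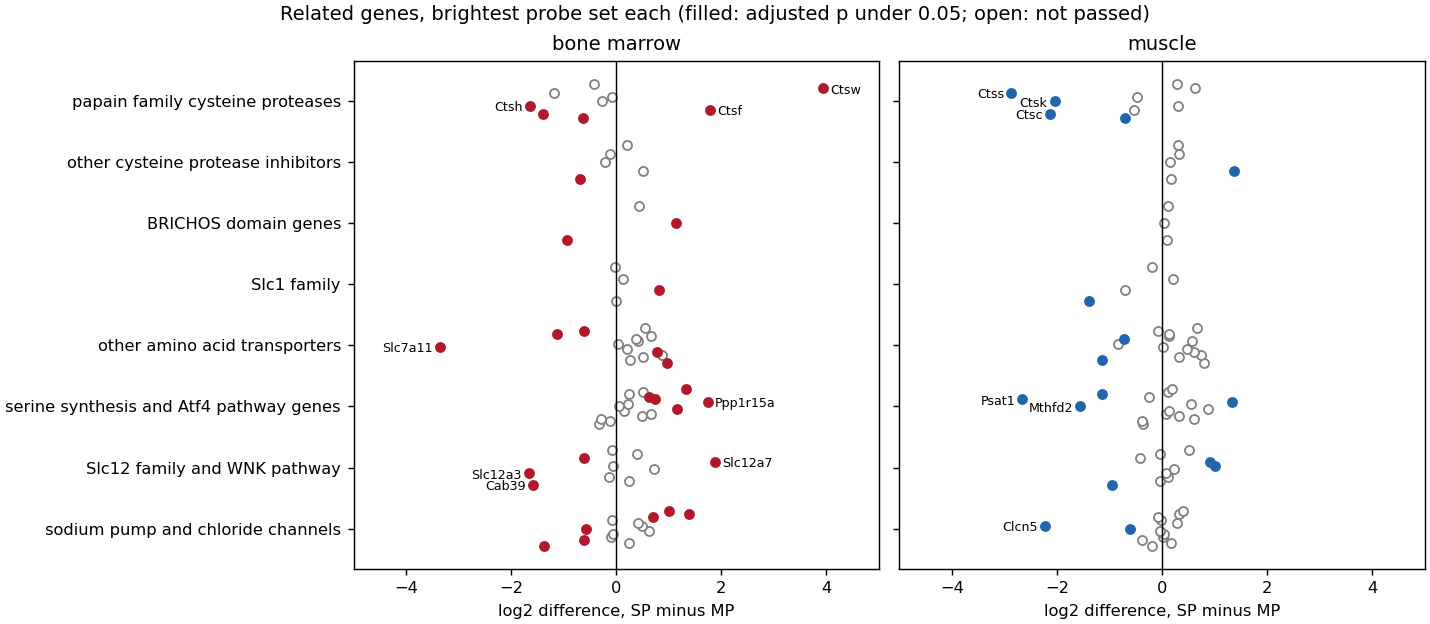
Log2 difference, SP minus MP, of each tested gene in 8 lists related to the members, in bone marrow (left) and muscle (right); filled points passed an adjusted p of 0.05 and open points did not, and names are given beyond a difference of 1.5. Ctsw and Slc7a11 lie farthest out in bone marrow, and Ctss and Psat1 in muscle.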

How the data were processed

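RNA of 4 groups of 5 samples was measured on 1-colour expression arrays. Each array has 1 deposited signal intensity for a probe set, on a linear scale. The trimmed mean, leaving out a share of 0.02 at each end, was 1501 on every array, so the deposited values had been scaled. What software made them is not given in the sources used here. Of 12488 probe sets, 66 controls were left out of the tests. Of the other 12422, 10833 carried 1 gene symbol, 396 several and 1193 none. Gene identifiers of 10817 matched RefSeq (GRCm38.p6), and 0 symbols changed.

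Values were quantile normalised, set to a floor at the 25th percentile of all values, and taken as log2. Testing required a signal over the floor on 5 or more arrays (10310 probe sets). One limma model (version 3.58.1, R 4.3.3, lmFit and eBayes) held all 4 groups, two-sided, with Benjamini-Hochberg adjustment over all probe sets tested and a threshold of 0.05. The fit was run on simulated normal values without a floor, with changes set in muscle SP only. This checks the code, and does not show how the fit behaves on floored data or on 4 unlike groups. A list counts the brightest probe set of each gene. From each list, up to 3 genes past the threshold with the largest change in each tissue are named, as are all tested relatives of a member (Slc1, Slc12, Itm2). Members and lists were chosen with earlier results of these data known. Start windows were aligned with Biopython 1.88, and figures drawn with matplotlib 3.10.9 in Python 3.11.15. Quantile normalisation removes overall differences between arrays, and the floor shrinks differences of dim genes.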

Additional observations from a re-analysis of the deposited data

Results flagged for a closer look

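In 127 groups of 5 arrays with no array at the floor, 5 held an array set apart from the other 4 by most of the group's range, where chance alone gives about 1 in 20. For Ctla2b these were muscle SP 3 (9450, next 5990) and muscle MP 3 (6371, next 4271). For Slc12a2 it was bone marrow MP 4, the lowest (503, next 740), and for the shared Ctla2 probe set bone marrow SP 3, the lowest (15169, next 21842). For Clcn5 it was muscle SP 1 (1183, next 632).

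Of the 35 related genes named, 21 had an SP minus MP change that differed between the tissues by the interaction term of limma (adjusted p between 4.8e-07 and 0.0406), against 18.5% of all 10310 probe sets tested. Most of the 35 were named for a large change in 1 tissue, which favours such a difference, so nothing is read from the share. The difference, bone marrow change minus muscle change on the log2 scale, was 3.32 for Ctsw, 2.31 for Ctsf, -1.94 for Ctsh, 1.77 for Ctsk and -0.87 for Cst3. For Itm2c it was 1.10, for Itm2b -1.02, for Slc1a2 1.51 and for Slc1a1 1.39, where bone marrow was at the floor. Among transporters it was -3.38 for Slc7a11, -1.25 for Slc7a7, 1.42 for Slc38a4 and 1.09 for Slc7a5. In the serine and Atf4 list it was 1.15 for Trib3, 3.39 for Psat1 and 1.60 for Mthfd2. It was 0.98 for Slc12a7, -1.73 for Slc12a3, -1.07 for Slc12a5, -1.18 for Atp1b1 and 2.72 for Clcn5. The members were not tested this way, since their marrow differences chose them.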

How the results depend on the processing

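Of 117 comparisons of the counts and of the muscle values of the members with an alternative other than leaving out an array, 114 kept direction and side of the threshold or stayed within 1.5 times. The exceptions were the shared Ctla2 probe set in muscle (1.22 with the GAPDH ratio as a covariate, 0.93 without the 3 arrays of highest ratio) and the probe sets higher in bone marrow SP, 2894 with no further normalisation against 1583. Of 65 such comparisons of the marrow values of the members, 59 moved by less than the spread between replicates. Median scaling gave 3.71 for Ctla2b, 3.52 for Slc12a2 and 3.17 for the shared Ctla2 probe set, the GAPDH covariate gave 4.07 for that probe set, and the floor and pseudocount gave the values of Slc1a4 named above. No further normalisation moved the median marrow difference of all probe sets to 0.31. Leaving out 1 array at a time, the shared Ctla2 value in muscle ran from 0.53 to 0.93, Itm2a from -1.45 to -1.21, Ctla2b from 0.29 to 0.59, Slc1a4 from -0.56 to -0.28 and Slc12a2 from -0.43 to -0.08. The probe sets called in muscle ran from 359 to 586 higher and 543 to 742 lower. Of the related genes, 554 of 593 comparisons kept direction and side.

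Small differences changed sign. In muscle these were Itm2c (-0.00571 with no further normalisation, -0.0749 with median scaling), Slc12a1 (-0.0859 with the GAPDH covariate, -0.0373 without the 3 arrays) and Slc12a3 (-0.0140 with the floor at the 10th percentile). In bone marrow they were Slc1a6 (0.0532 with no further normalisation and 0.0468 with the covariate), Slc12a1 (0.42) and Slc12a5 (0.47) with no further normalisation. Leave-one-out ranges that crossed 0 were -0.12 to 0.18 for Itm2c, -0.0367 to 0.19 for Slc12a1 and -0.0442 to 0.12 for Slc12a3 in muscle, and -0.0746 to 0.32 for Slc1a5 and -0.28 to 0.0560 for Slc12a5 in bone marrow. The causes were not tested.

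Whether equal replicate numbers pair the samples was not settled. Deviations of samples with equal numbers correlated between 0.07 and 0.21 in muscle and between -0.14 and 0.21 in bone marrow. Such low values do not exclude an effect shared by samples of 1 number. With the replicate number as a block, 631 probe sets were higher and 765 lower in muscle SP, and 1722 and 1609 in bone marrow SP. Each of these counts was larger than in the fit without the block. Itm2a in muscle was -1.33 with the block (limma, adjusted p = 0.00165). Signal over background limits Ctla2a and the marrow MP level of Slc1a4.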
